A study of Homo sapiens with 6 samples.

Results

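The genes examined here are 10 genes of cellular iron uptake, storage, export and sensing, out of 57150 genes in the table of RNA-seq values. They were chosen by name: a row belonged to the set when its gene symbol was TFRC, SLC11A2, STEAP3, FTH1, FTL, NCOA4, SLC40A1, IREB2, ACO1 or FBXL5, and each of the 10 symbols had 1 row. By the labels the cells were K562, a human erythroleukemia line, and the study asked how loss of the poly(C)-binding proteins αCP1 and αCP2 changes its RNA. The group labelled KD was 3 cell pools that received siRNAs against both αCP1 and αCP2, and the group labelled CTRL was 3 pools that received control siRNAs, with RNA taken 72 h after transfection. For every gene the table holds 1 FPKM, which is a read count scaled for transcript length and library size, and 1 estimated count per group. The pools of a group are therefore not separated in these values, the differences given here have no replicate check, and no new test over samples could be run. The authors' own fold changes, p-values and FDR, and their further group averages, minima and maxima, were not used. The values do not bear out the labels in full. By FPKM the mRNA of αCP1 was nearly equal in the groups, and that of αCP2 was higher in the group labelled KD. The study, by contrast, reports depletion of both by mRNA and by protein. Of 12 erythroid and K562 markers, 6 were at 0. Of 8 epithelial markers, the keratin genes KRT18 and KRT8 had the highest values and 2 were at 0 (values given after the sequences). Whether the table holds the labelled libraries was not tested.

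Iron enters most cells bound to transferrin, which is taken up by transferrin receptor 1, the product of TFRC. In the endosome the iron is reduced by STEAP3 and passed to the cytosol by the transporter DMT1, which SLC11A2 encodes. Iron that is not used is stored inside ferritin, a shell of heavy subunits (FTH1), which oxidise iron, and light subunits (FTL), which help to mineralise it. NCOA4 carries ferritin to the lysosome for breakdown, and ferroportin, the product of SLC40A1, exports iron from the cell. The RNA-binding proteins IRP1 (ACO1) and IRP2 (IREB2) recognise a stem-loop, the iron-responsive element, and FBXL5 is the iron-sensing subunit of the ligase that marks IRP2 for degradation. An element near the start of the mRNA lets these proteins block translation, and their binding to elements in the 3′ UTR of TFRC protects that mRNA from decay. The targets of the siRNAs belong to the same subject, since αCP1 and αCP2 are also known as iron chaperones that deliver iron to ferritin.

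The iron-responsive elements are shown first, because they are the regulatory sequence that ferritin, ferroportin and transferrin receptor mRNAs share. The choice of genes by name did not use the element. These mRNAs are known carriers of it, however, so a share of matches above that of all genes was fixed in advance. Transcripts of GENCODE release 44 on GRCh37, the same assembly as hg19 of the table, were searched on the transcript strand for a C, 5 bases of any kind, and the 6-base loop CAGTGN. At least 4 of the 5 bases on either side of the loop had to be able to pair, with G-U pairs allowed. A match in a UTR was found in 7 of the 10 genes, against 1060 of 11182 expressed coding genes (9.48%). With all 5 pairs required, 4 of the 10 genes had a match, against 164 genes (1.47%). These 4 were FTH1, FTL, SLC40A1 and TFRC. SLC40A1 is counted although it was listed at 0 in both columns, whereas the background holds expressed genes only. Capitals mark the unpaired C and the loop, and each sequence is written 5′ to 3′ on the transcript strand.
FTH1, 5′ UTR, chr11:61735046-61735074, minus strand: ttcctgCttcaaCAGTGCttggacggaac
FTL, 5′ UTR, chr19:49468592-49468620, plus strand: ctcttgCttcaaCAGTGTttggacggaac
SLC40A1, 5′ UTR, chr2:190445387-190445415, minus strand: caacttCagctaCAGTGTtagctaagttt
TFRC, 3′ UTR, chr3:195777850-195777878, minus strand: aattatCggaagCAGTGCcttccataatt
TFRC, 3′ UTR, chr3:195777446-195777474, minus strand: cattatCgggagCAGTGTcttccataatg
TFRC, 3′ UTR, chr3:195777381-195777409, minus strand: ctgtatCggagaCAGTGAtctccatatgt
TFRC, 3′ UTR, chr3:195777334-195777362, minus strand: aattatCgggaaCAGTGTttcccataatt
SLC11A2, 3′ UTR, chr12:51382052-51382080, minus strand: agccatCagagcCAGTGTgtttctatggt

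The elements of FTH1 and FTL were identical at 26 of 29 bases, although the mRNAs encode different subunits. In TFRC the search found 4 elements within 545 nt, and any pair of them shared 18 to 25 of 29 bases. Elements outside the search pattern would be missed. SLC11A2 had 4 of the 5 pairs, in 6 annotated transcripts. The matches in ACO1 and IREB2 also had 4 of the 5 pairs, each in 1 annotated transcript, and the one in ACO1 lies outside the locus that the table gives for that gene. No match was found in STEAP3, NCOA4 or FBXL5. A match describes the letters only, and binding was not measured.

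Several facts of the whole table bear on the values below. Total estimated counts were 13699340 in the KD column against 11680567 in the CTRL column. Each total is lower than the mapped read pairs that the study reports for any single pool, and the reason was not tested. The counting intervals and the limit for a count of 0 given below rest on the counts as listed. The mRNAs of the siRNA targets were not lower as the label would have it. PCBP1, which encodes αCP1, was nearly equal, at an FPKM of 184 in the KD column against 188. PCBP2, which encodes αCP2, was higher in the KD column, at 531 against 342. The columns are for that reason called the KD column and the CTRL column, by their labels only. Of 12 erythroid and K562 marker genes, 6 were listed at 0 in both columns, among them GATA1, TAL1, KLF1 and HBZ, and the summed FPKM of the list was 162 in the KD column against 43.4 in the CTRL column, most of it from the embryonic globin gene HBE1. Of 8 epithelial markers, 4 had an FPKM over 5 in both columns, 2 (KRT19 and ESRP1) were listed at 0 in both, and the summed FPKM was 4370 against 3190, mostly from KRT18 (2310 against 1748) and KRT8 (1505 against 819). The list was split: of 5 markers that averaged at least 1 FPKM, 3 were higher in the KD column and 2 were lower. The lower ones were KRT7 (540 against 604) and CLDN4 (11.1 against 15.0), and CDH1 was below 1 in both columns. Of 6 fibroblast and mesenchymal markers, only VIM was over 5 in both columns, COL1A2 and LUM were at 0 in both, and the sum was 699.7 against 554. The part of these marker differences in the values of the iron genes was not tested, and in pooled cells a change in the share of a cell type and a change in RNA per cell cannot be told apart.

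The expressed iron genes ran from an FPKM of 6.91 for ACO1 to 7974 for FTH1 in the KD column, and from 9.99 to 8209 in the CTRL column (the plot of levels by column). FTH1 was among the most abundant of the 13741 genes whose FPKM averaged at least 1 over the columns, at rank 16 in the KD column against rank 9 in the CTRL column. FTL followed at rank 133 and rank 150. TFRC stood at rank 1025 and 1742, NCOA4 at 1898 and 1511, and STEAP3 at 2699 and 3451. SLC11A2, FBXL5, IREB2 and ACO1 lay lower, between rank 3929 and rank 8340. The order of the genes by FPKM was the same in both columns except that TFRC was above NCOA4 in the KD column and below it in the CTRL column. Whether neighbours in this order differ beyond the spread between pools was not tested.

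**Figure D1:**
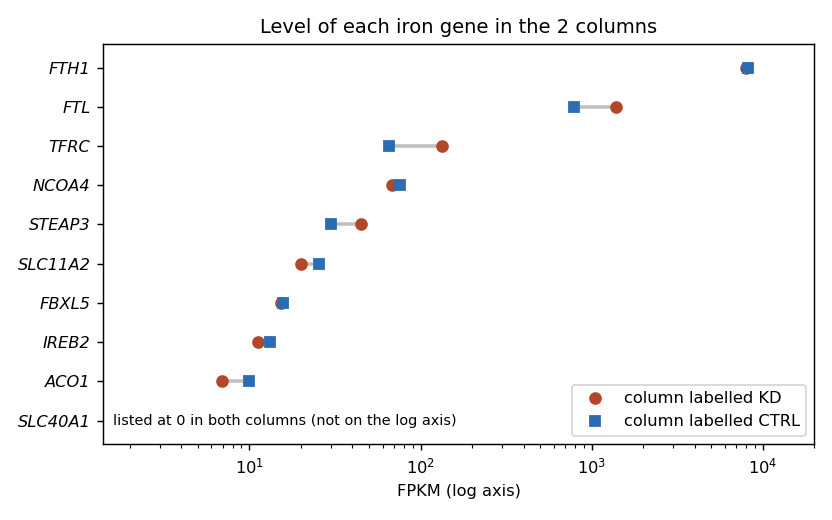
FPKM (log axis) of each of the 10 iron genes, with a circle for the KD column and a square for the CTRL column, joined by a grey line. The symbols of FTH1 nearly coincide, the lines of TFRC and FTL are the longest of those that lead to the right, and SLC40A1 is listed at 0.

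Among the genes of uptake, TFRC and STEAP3 were higher in the KD column and SLC11A2 was lower. TFRC (ENSG00000072274; chromosome 3, 195754053 to 195809060 in hg19) was at an FPKM of 134 in the KD column against 65.7 in the CTRL column, from 7611 and 3594 estimated counts. Its log2 ratio, taken as log2 of FPKM + 1 in KD over CTRL, was 1.01. As a share of each column's total count the log2 ratio was 0.85, with a 95% interval (exact binomial) of 0.80 to 0.91. Such intervals cover counting error only, and reads are not independent molecules.

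TFRC was the only iron gene of the 10 to reach a log2 ratio of 1, and it did so narrowly, with 0.998 when the median of all genes was subtracted. Of the 9 genes that averaged at least 1 FPKM, 1 was at or above a log2 ratio of 1 and 0 were at or below -1. Over all 13741 such genes, 8.51% lay at or above 1 and 3.27% at or below -1, so the count among the iron genes was close to the background. With counts over column totals, 6.92% of all genes were at 1 or more and 9.83% at -1 or less, and 0 of the iron genes reached either limit. The median over all genes moved from 0.01 with FPKM to -0.21 with counts over totals. Relative to that median TFRC stood at 1.06. The share of higher genes among those past either limit was 72.2% with FPKM and 41.3% with counts over totals.

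STEAP3 (ENSG00000115107; chromosome 2, 119981383 to 120023228) was at an FPKM of 44.9 in the KD column against 30.2 in the CTRL column, a log2 ratio of 0.56. Its log2 ratio of count shares was 0.35 (0.25 to 0.45). SLC11A2 (ENSG00000110911; chromosome 12, 51373183 to 51422349) was at an FPKM of 20.1 against 25.6, a log2 ratio of -0.33, and a ratio of count shares of -0.53 (-0.66 to -0.39). The receptor and the reductase were thus both higher, and the transporter that acts after them was lower, in the same column.

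Of the ferritin subunits, FTL was higher in the KD column, and FTH1 differed little by FPKM and was lower by counts. FTH1 (ENSG00000167996; the table places it on chromosome 11, 61717292 to 61735132) was at an FPKM of 7974 in the KD column against 8209 in the CTRL column, a log2 ratio of -0.04. FTL (ENSG00000087086; chromosome 19, 49468557 to 49470135) was at an FPKM of 1379 against 792, a log2 ratio of 0.80, from 11977 and 6836 counts. By count shares, FTL was at 0.58 (0.54 to 0.62) and FTH1 at -0.44 (-0.46 to -0.42).

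Heavy over light chain mRNA, a ratio of FPKM taken within a column, was 5.78 in the KD column against 10.4 in the CTRL column. On the log2 scale this ratio differed by -0.84. The near-identical elements at the 5′ ends of these mRNAs, shown above, act on translation, which was not measured here. TFRC over FTH1, a ratio of uptake to storage mRNA, was 0.0168 in the KD column against 0.00801 in the CTRL column, and TFRC over FTL was 0.0969 and 0.0830. Such ratios are free of a scaling factor common to all genes of a column, but not of shifts that differ between genes. With a trend in GC content and transcript length removed (below), FTH1, FTL and TFRC were at log2 ratios of -0.03, 0.57 and 1.32. By FPKM they were at -0.04, 0.80 and 1.01.

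Ferritin has many processed pseudogenes, which can share reads with the parent genes. The table lists 25 FTH1 pseudogenes, of which 11 were at 0 in both columns, and 16 FTL pseudogenes, of which 12 were at 0. The FTH1 pseudogenes together held 420 counts in the KD column against 621 in the CTRL column, or 0.700% and 0.895% of the FTH1 count. The most abundant, FTH1P2, had 287 and 439 counts. For FTL the pseudogenes held 196 and 250 counts, or 1.64% and 3.66% of the FTL count, mostly in FTLP3 with 187 and 240. Summing each parent with its pseudogenes gave log2 ratios of count shares of -0.44 for FTH1 and 0.55 for FTL. With the pseudogenes included, the opposite signs of FTH1 and FTL by count share remained. With at most 3.66% of a parent's count, the pseudogenes could not have turned these signs. The sharing of reads between parents and pseudogenes was not itself measured.

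NCOA4, the receptor for ferritin breakdown (ENSG00000138293; chromosome 10, 51565107 to 51590734), was measured at an FPKM of 68.1 in the KD column against 75.6 in the CTRL column, a log2 ratio of -0.15. Its ratio of count shares was -0.39 (-0.46 to -0.31). NCOA4 mRNA was far below that of its cargo, with 1 FPKM of NCOA4 for 117 of FTH1 in the KD column and for 108.5 in the CTRL column.

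The iron exporter gene SLC40A1 (ENSG00000138449; chromosome 2, 190425304 to 190448484) was listed at an FPKM of 0 with 0 counts in both columns. A count of 0 allows up to 3 counts, which is 0.219 CPM in the KD column and 0.257 CPM in the CTRL column (a count scaled to the column total), so its mRNA was not detectable at this depth. It was the only gene of the 10 without counts, and no ratio is given for it.

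The sensors of iron were all expressed, and each had a lower FPKM in the KD column. IREB2 (ENSG00000136381; chromosome 15, 78729772 to 78793798) was at an FPKM of 11.2 in the KD column against 13.2 in the CTRL column, a log2 ratio of -0.23 and a ratio of count shares of -0.38 (-0.52 to -0.24). ACO1 (ENSG00000122729; chromosome 9, 32384617 to 32450834) was at an FPKM of 6.91 against 9.99, a log2 ratio of -0.47, the lowest of the set. Its ratio of count shares was -0.76 (-0.98 to -0.54), from 293 and 423 counts. IREB2 over ACO1, the mRNA of IRP2 over that of IRP1, was 1.62 in the KD column against 1.32 in the CTRL column.

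FBXL5 (ENSG00000118564; chromosome 4, 15606161 to 15739936) was the gene on which FPKM and counts differed most. Its FPKM was 15.3 in the KD column against 15.6 in the CTRL column, a log2 ratio of -0.03. Its counts were 354 and 484, a log2 ratio of count shares of -0.68 (-0.88 to -0.48). Each FPKM of FBXL5 stood for 23.2 counts in the KD column and for 30.9 in the CTRL column, and this number depends on the transcript length that the authors' software gave to the reads. The log2 ratio of counts per FPKM was -0.42 for FBXL5, whereas the median over 13626 genes was 0.00480, the 5th percentile was -0.35 and the 95th was 0.35. FTH1 was next at -0.17, with 7.52 and 8.45 counts per FPKM. For the other 7 expressed iron genes the value was between -0.01 and 0.10 (the plot of the FPKM ratio against the count ratio).

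**Figure D2:**
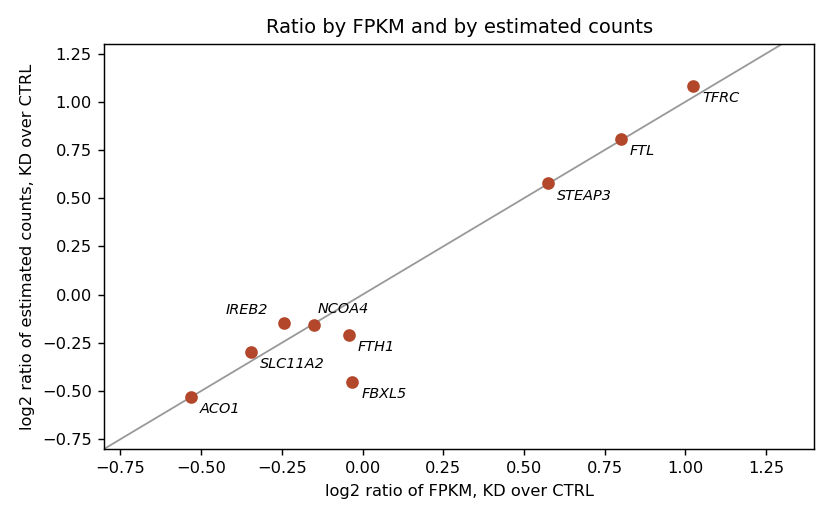
Log2 ratio of FPKM with no pseudocount (x axis) against log2 ratio of estimated counts (y axis), each KD over CTRL, for the 9 expressed iron genes, with the line of equal values in grey. FBXL5 lies below the line by 0.42 and FTH1 by 0.17, and the others lie within 0.10 of it.

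TFRC, FTL and STEAP3 were higher in the KD column under every scaling tried. Besides FPKM and counts over totals, these were counts over median-of-ratios size factors and FPKM with a smooth trend in GC content and transcript length removed. TFRC ranged from 0.85 to 1.32, FTL from 0.57 to 0.80, and STEAP3 from 0.35 to 0.56. SLC11A2, FTH1 and ACO1 were below 0 under every scaling, with ranges of -0.53 to -0.07 for SLC11A2, -0.44 to -0.03 for FTH1 and -0.76 to -0.23 for ACO1. NCOA4, IREB2 and FBXL5 were below 0 except with the GC and length trend removed, which gave 0.10, 0.12 and 0.27. The GC content of the annotated transcript was 40.9% for TFRC and 56.0% for FTL and 56.8% for STEAP3, and removal of the trend raised TFRC and lowered the other two.

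**Figure D3:**
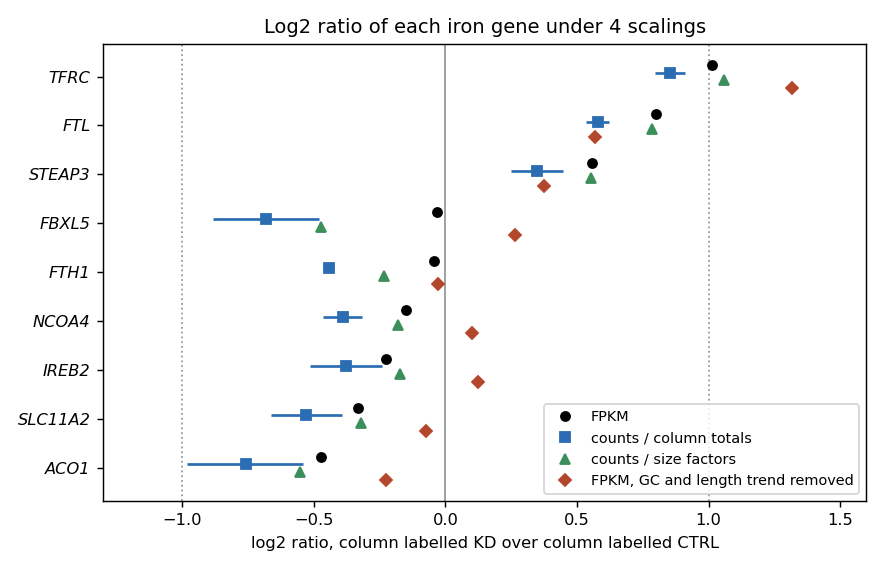
Log2 ratio (x axis, KD over CTRL) of the 9 expressed iron genes under FPKM, counts over column totals with 95% counting intervals, counts over size factors, and FPKM with the GC and length trend removed. Dotted lines mark a log2 ratio of 1 either way; TFRC, FTL and STEAP3 stay above 0 throughout, and the 4 values of FBXL5 run from -0.68 to 0.27.

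The 9 expressed iron genes had a median log2 ratio of -0.04, against 0.01 over all genes, with 3 above 0 and 6 below. Of all genes, 51.1% were above 0. With counts over totals the medians were -0.39 and -0.21. By FPKM the uptake genes had a median of 0.56, the storage genes of -0.04 and the sensors of -0.23, each over 3 genes. With counts over totals these were 0.35, -0.39 and -0.68. In the histogram of all genes, 8 of the 9 iron genes lie between the limits and TFRC lies just past the upper one.

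**Figure D4:**
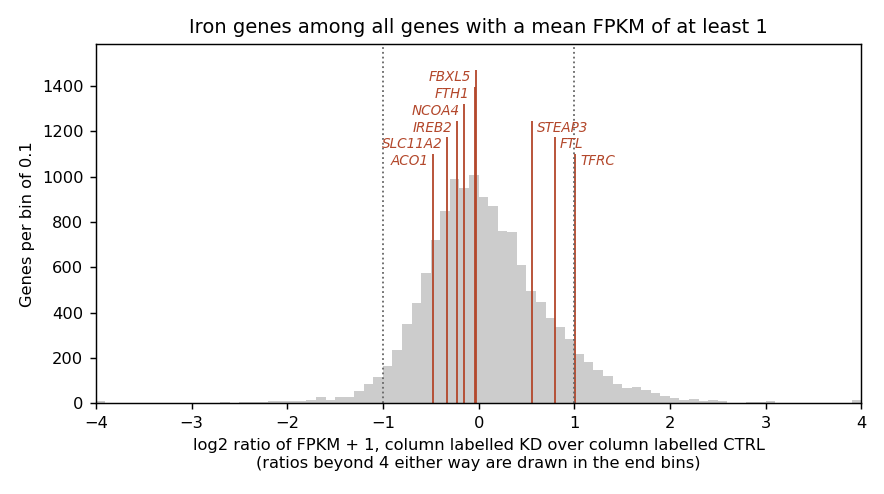
Histogram of the log2 ratio of FPKM + 1 (x axis, KD over CTRL; y axis, genes per bin of 0.1) for 13741 genes, with the 9 expressed iron genes as red lines. The lines run from ACO1 at -0.47 to TFRC at 1.01, inside the dotted limits of -1 and 1 except for TFRC.

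The other genes of iron handling were taken from lists by role, 78 genes in the table, of which 63 averaged at least 1 FPKM. Among them 5 were at or above a log2 ratio of 1, where 8.51% of all genes lay, and 2 were at or below -1, where 3.27% lay, and the median was -0.11. The higher genes described below are NUBP2, FAM96B, PCBP4 and HERC2. The 2 lower genes were EXOC6 and CISD1. EXOC6 was past the limit under every scaling tried. NUBP2 was below 1 only with the GC and length trend removed, PCBP4 and FAM96B with that and with counts over totals, and HERC2 with counts over totals and over size factors. CISD1 was above -1 with the trend removed.

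Of 9 expressed genes of the transferrin cycle and other uptake, 8 had a ratio below 0 and the median was -0.48. Over all genes, 51.1% were above 0 by FPKM and 38.1% with counts over totals. Of the uptake genes of the set, SLC11A2 was also below 0, at -0.33, whereas TFRC and STEAP3 were above it. EXOC6, an exocyst subunit that acts in transferrin recycling, had an FPKM of 3.58 in the KD column against 17.6 in the CTRL column, a log2 ratio of -2.02. Its counts were 145 and 376, with a ratio of shares of -1.60 (-1.89 to -1.32). SNX3, a sorting factor for transferrin receptor and the most abundant gene of this list, was at -0.29.

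Of the poly(C)-binding family of iron chaperones, PCBP4 had the highest ratio, with an FPKM of 24.1 against 11.1 and a log2 ratio of 1.05. PCBP2, the most abundant of the family, was at 0.63, PCBP1 was at -0.03, and PCBP3 was listed at 0 in both columns.

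Iron-sulfur cluster assembly was measured by 19 expressed mitochondrial genes, with a median of -0.09, and by 10 cytosolic genes, with a median of 0.07. The sign of each depended on the scaling, with 0.15 for the mitochondrial list with size factors and -0.15 for the cytosolic list with counts over totals. CISD1, an iron-sulfur protein of the outer mitochondrial membrane and the most abundant of the mitochondrial list, had an FPKM of 85.2 in the KD column against 191.5 in the CTRL column, a log2 ratio of -1.16. In the cytosolic list, NUBP2, a scaffold for cluster assembly, had an FPKM of 81.5 against 33.6 and a log2 ratio of 1.25. FAM96B, which helps to deliver clusters to target proteins, had an FPKM of 134 against 62.6 and a log2 ratio of 1.09. The most abundant gene of that list, its relative FAM96A, was at -0.12. BOLA2 was listed at 0, and its reads may be split between near-identical copies.

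Among 4 expressed genes of other mRNAs known for an iron-responsive element, 3 were below 0 and the median was -0.16, against 0.14 with the GC and length trend removed. The most abundant of those described, EPAS1, which encodes a hypoxia-inducible factor, was at -0.33. The search described above found no match in EPAS1. The genes of the set with a match and a ratio lay on both sides of 0 by FPKM. TFRC and FTL were above it, and FTH1, SLC11A2, IREB2 and ACO1 were below.

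Among 5 partners of ferritin turnover, HERC2, the ligase that targets NCOA4, had an FPKM of 27.6 in the KD column against 12.2 in the CTRL column, a log2 ratio of 1.12. Its counts were 539 and 514, with a ratio of shares of -0.16 (-0.34 to 0.02), so the higher FPKM of HERC2 was not seen in its counts. The median of the list was 0.18 by FPKM and turned to -0.16 with counts over totals. SKP1, a partner of FBXL5 in its ligase and the most abundant of this list, was at -0.25.

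None of 8 genes of heme handling and of the transcription of ferritin reached either limit, and their median was -0.47 by FPKM, -0.16 with counts over totals and 0.05 with size factors. HMOX2, a heme oxygenase and the most abundant of this list, was at 0.06. Of 5 expressed systemic regulators and exporters, 0 reached either limit by FPKM and the median was -0.70. With counts over totals the median was -0.34 and 2 genes were at -1 or less, HFE at -1.16 and FAM132B at -1.41, and with size factors the median was -0.13. The most abundant gene, BMP6, was at -0.11 by FPKM. HAMP, which encodes the hormone hepcidin, and HEPH, an iron oxidase gene, were listed at 0 in both columns.

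**Figure D5:**
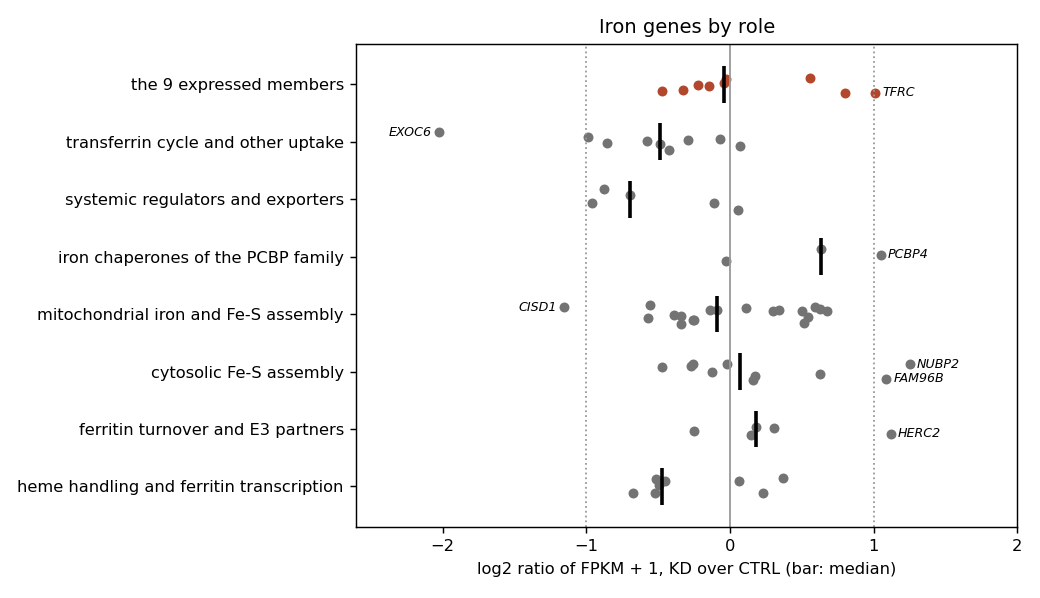
Log2 ratio of FPKM + 1 (x axis, KD over CTRL) of expressed iron genes in 8 of the groups by role, 1 point a gene, with the median as a bar and limits of -1 and 1 dotted. The 9 genes of the set are red; NUBP2, FAM96B, PCBP4 and HERC2 are named at 1 or more and CISD1 and EXOC6 at -1 or less, and EXOC6 is the lowest at -2.02.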

How the data were processed

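RNA-seq values of pools labelled as K562 were analysed from a table of genes. The markers and siRNA targets do not bear out the labels in full. According to the labels and methods, the authors mapped paired reads with TopHat 1.4.1 to hg19 and Ensembl transcripts. They calculated the deposited FPKM values and estimated counts with Cuffdiff 2.2.0, which gives 1 value per gene and group. The way Cuffdiff merged the pools is not given in the sources used here. Counts assigned to genes depend on how shared reads were split, and FPKM also depends on the isoform lengths assigned. Columns with the authors' fold change, p-value and FDR were not used, nor were further group averages, minima and maxima.

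Groups came from the sample labels. Log2 ratios were taken after adding 1 to each FPKM, which understates changes of low genes, and only genes averaging 1 FPKM or more were compared. Limits were log2 ratios of 1 and -1. Intervals are exact binomial intervals of the rounded counts at 95%. For counts over totals or size factors, 0.5 was added to each count. Models across libraries were not fitted, because each group has 1 value. GC content and length came from GENCODE release 44 on GRCh37 (97.4% of genes; 310 table IDs, among them NCOA4, were matched by symbol). The functions were tested on simulated counts with counting error only and on random sequences with planted elements. Spread between pools and shifts in isoform length were not simulated. Other genes named are those of each list past a limit and its most abundant one. PCBP3, BOLA2, HAMP and HEPH, at 0, and HFE and FAM132B were named after their values were seen. The members and lists were chosen with earlier results of these data known. Calculations used scipy 1.17.1, pandas 2.3.3 and numpy 2.4.6 under Python 3.11.15, with plots by matplotlib 3.10.9. Some genes of the lists count in the totals but are not reported here by name. Splicing and protein experiments were not analysed here.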

Additional observations from a re-analysis of the deposited data

How the results depend on the processing

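No paired analysis was possible because pools are not separated in the table, and the fits with a replicate block or without single libraries were not run for the same reason. Summing all rows of a symbol changed nothing, since each iron gene has 1 row. With counts over totals, 0 of the iron genes were at or above a log2 ratio of 1, against 1 with FPKM, and their median was -0.39 against -0.04. The count was also 0 when ratios were centred on the median of all genes, which put TFRC at 0.998. The median was -0.18 with size factors and 0.12 with the GC and length trend removed. Of the other iron genes, 5 were at 1 or more with FPKM, 2 with counts over totals (NUBP2 among them) and 2 with the trend removed (HERC2 among them). At -1 or less there were 2 with FPKM, 5 with a pseudocount of 0.1, 5 with counts over totals and 4 with size factors. EXOC6 was among them under each of the 7 alternatives. Requiring all 5 pairs left 4 iron genes with an element, against 7, by a stricter criterion. Over all genes, 450 were at -1 or less with FPKM, 791 with a pseudocount of 0.1, 1351 with counts over totals, 805 with size factors, and 292 with an FPKM over 5 in at least 1 column, where fewer genes were counted. At 1 or more there were 1169 with FPKM and 757 with the trend removed. The cause was not tested for the other shifts. Of 167 values under alternatives, 118 stayed near the main value, and 49 moved away from it. Near meant within counting error for ratios and within a set factor for counts of genes. A change of filter cannot move the ratio of a single gene, so part of the 118 was fixed in advance. TFRC kept its sign throughout, and HERC2, at 1.12 by FPKM, was at -0.16 by count share. Depth limits SLC40A1 most, for which no ratio could be given.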
